A study of Homo sapiens with 6 samples.

Results

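The genes described are 9 of the 58735 in the deposited table, followed because their products supply, use or break down glutathione or keep membrane lipids from peroxidation. They were taken by name: GCLC, GCLM and GSS for glutathione synthesis, SLC7A11 for cystine import, GSR and TXNRD1 for reduction of disulfides, GPX4 and AIFM2 for defence against lipid peroxides, and CHAC1 for glutathione breakdown. All 9 had 1 row each. The cells were C4-2B MDVR, an established human prostate cancer line derived from C4-2B by selection for resistance to enzalutamide, so every library, the control included, comes from resistant cells. The study had 6 libraries after 2 days of exposure, 1 per group: DMSO as control, enzalutamide at 20 uM, PTUPB at 10 uM, PTUPB at 20 uM, PTUPB at 10 uM plus enzalutamide, and PTUPB at 20 uM plus enzalutamide. Enzalutamide blocks the androgen receptor, and PTUPB inhibits both soluble epoxide hydrolase and cyclooxygenase-2. The enzalutamide dose is labelled only for the single agent and was taken to be equal in the combinations. The question the layout addresses is what PTUPB, enzalutamide and their combination do to gene expression in cells selected for enzalutamide resistance.

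Glutathione is a tripeptide of glutamate, cysteine and glycine. Cysteine enters mostly as cystine through the xCT antiporter, whose transport subunit is the SLC7A11 product. Glutamate-cysteine ligase, a catalytic subunit (GCLC) with a modifier subunit (GCLM) that makes it more efficient, performs the rate-limiting step, and glutathione synthetase (GSS) completes the molecule. GPX4, a selenoprotein, spends glutathione to reduce lipid hydroperoxides in membranes, and ferroptosis is the iron-dependent death that follows when such peroxides build up. AIFM2, also called FSP1, protects membranes in parallel by regenerating reduced coenzyme Q. The transcription factor NRF2 acts through antioxidant response elements at many of these genes, and ATF4 acts through composite ATF-C/EBP elements at CHAC1 and SLC7A11.

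Promoter sequence from RefSeq (GRCh38.p14) was matched for 6 of the 9 genes, namely GCLC, GCLM, TXNRD1, GPX4, AIFM2 and CHAC1. The stretches below are shown because they hold the letters these 2 factors are known to read, beside genes that did and did not move. Positions are counted from the RefSeq start, with the last base before it as -1. Capitals mark the match to the antioxidant response element core TGACNNNGC or, for CHAC1, to the ATF4-C/EBP composite TGATGNAA, on either strand. The GCLM match lies at -34 to -26 (chr1:93909456-93909464, minus strand), the TXNRD1 matches at -99 to -91 of one start (chr12:104215680-104215688, plus strand) and -102 to -94 of another (chr12:104286930-104286938), the AIFM2 match at -22 to -14 (chr10:70132839-70132847, minus strand), and the CHAC1 match at -209 to -202 (chr15:40953262-40953269, plus strand).
GCLM: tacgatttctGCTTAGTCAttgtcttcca
TXNRD1 first start: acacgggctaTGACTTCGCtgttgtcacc
TXNRD1 second start: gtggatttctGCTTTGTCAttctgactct
AIFM2: cagcacgagtGCTGAGTCAcgccccgccc
CHAC1: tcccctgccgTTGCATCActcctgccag
The matches shown lie wholly upstream of a RefSeq start, and 1 more antioxidant core match spans the first TXNRD1 start, at -8 to 1. By the GENCODE bounds of the genes, the second TXNRD1 match and the AIFM2 and CHAC1 matches lie inside the gene. The AIFM2 match overlaps an AP-1 site (TGANTCA). The 250 bases before the GCLC start and before each of 3 GPX4 starts held neither motif. In 35116 such windows of 250 bases across the genome, 10.9% held the antioxidant core and 3.14% the ATF4-C/EBP composite on either strand. The composite was the less frequent, both occurred in many other windows, and the matches are given as a description.

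Expression is given as FPKM, fragments scaled to exon length and library size, which allows levels of different genes to be compared per length. Depth was 20156523 to 29450436 fragments per library, as recovered from the values, with the 2 lowest totals in the 20 uM PTUPB libraries. All 10 prostate luminal markers checked were present at FPKM of 1 or more in at least 1 library. Their summed level was 998 to 1105 FPKM in the 4 libraries at 0 or 10 uM PTUPB and 338 and 337 FPKM at 20 uM without and with enzalutamide. KLK3 stood at 105 FPKM in the control and 0.648 and 0.458 FPKM at 20 uM, while the keratin genes KRT8 and KRT18 stayed at 42.5 FPKM or more in every library. Summed markers of other cell types were low: at most 2.06 FPKM for 5 basal markers, 3.71 to 7.11 FPKM for 7 stromal markers (mostly COL1A1), 0.351 FPKM for 7 blood markers, and 0.595 FPKM for 5 endothelial markers. The part of the luminal marker difference in the results below was not tested. In bulk libraries, fewer cells of a kind and less RNA per cell cannot be told apart.

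The modifier subunit of glutamate-cysteine ligase showed the largest difference among the 9 genes. GCLM (ENSG00000023909, GRCh38 chromosome 1, 93885205 to 93909456) stood at 10.2 FPKM in the control, 11.8 with enzalutamide, 9.94 with 10 uM PTUPB, 15.2 with 10 uM PTUPB plus enzalutamide, 169.7 with 20 uM PTUPB and 100.2 with 20 uM PTUPB plus enzalutamide. Both 20 uM libraries were far above the other 4, and 10 uM alone was level with the control. At 20 uM GCLM was 16.7-fold higher without enzalutamide (95% counting interval 15.9 to 17.6) and 8.46-fold higher with it (8.04 to 8.90). These intervals are exact binomial ones on the fragments and cover counting error only, since no group has a replicate.

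GCLC, the catalytic subunit, differed less between libraries than GCLM. It (ENSG00000001084, chromosome 6, 53497341 to 53616970) stood at 3.23 FPKM in the control, 2.96 with enzalutamide, 2.99 with 10 uM PTUPB, 4.39 with the 10 uM combination, 6.45 with 20 uM PTUPB and 3.61 with the 20 uM combination. The library with 20 uM PTUPB alone stood at 2.00-fold the control level (1.83 to 2.18), and the 20 uM combination lay below the 10 uM one. Per length, GCLM exceeded GCLC 3.15-fold in the control, 3.99-fold with enzalutamide, 3.32-fold with 10 uM PTUPB and 3.46-fold with the 10 uM combination. At 20 uM PTUPB the excess was 26.3-fold without and 27.8-fold with enzalutamide, so the ratio was nearly equal in these 2 libraries although both genes were lower in the combination. These excesses rest on the merged length of all annotated exons, 8646 bases for GCLC and 5420 for GCLM. Their absolute size depends on those lengths. Of the GCLC exon length, 6.12% overlaps a long noncoding gene on the same strand whose level reached at most 2.03 FPKM. The low GCLC values carry that uncertainty.

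**Figure D1:**
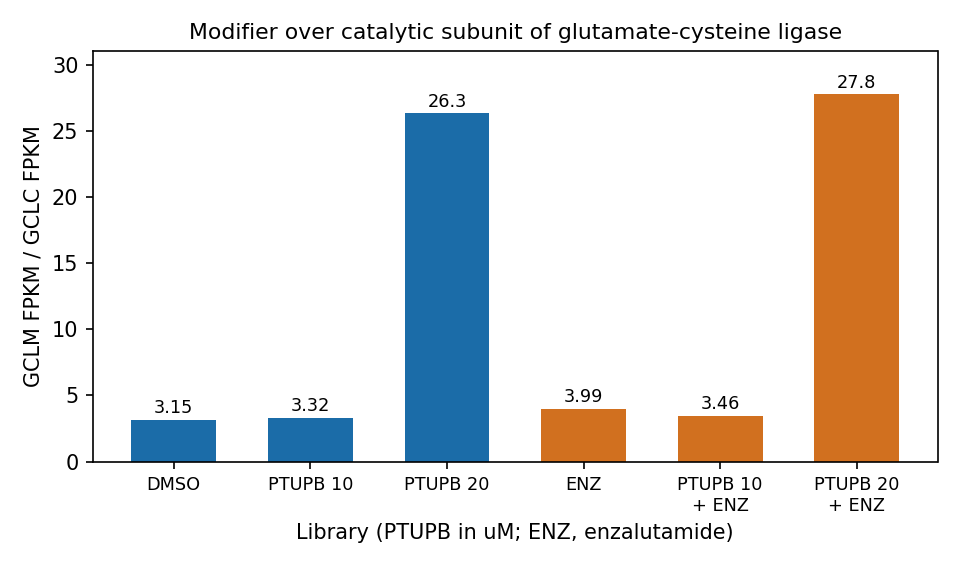
Bars give the FPKM of GCLM divided by the FPKM of GCLC in each of the 6 libraries (vertical axis from 0; blue without and orange with enzalutamide; 1 library per bar, no error bars). The 4 libraries at 0 or 10 uM PTUPB sit between 3.15 and 3.99 and the 2 at 20 uM at 26.3 and 27.8.

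The last enzyme of synthesis, GSS, spanned a narrow range. It (ENSG00000100983, chromosome 20, 34928433 to 34956027) stood at 23.5 FPKM in the control, 25.6 with enzalutamide, 19.7 with 10 uM PTUPB, 21.9 with the 10 uM combination, 32.6 with 20 uM PTUPB and 34.2 with the 20 uM combination. The 2 libraries at 10 uM were the lowest and the 2 at 20 uM the highest, with a 1.73-fold distance between the extremes.

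SLC7A11, the cystine carrier, was higher than the control in each of the 5 treated libraries. It (ENSG00000151012, chromosome 4, 138164097 to 138242349) stood at 15.6 FPKM in the control, 25.1 with enzalutamide, 34.1 with 10 uM PTUPB, 42.4 with the 10 uM combination, 69.97 with 20 uM PTUPB and 28.7 with the 20 uM combination. Without enzalutamide the level was higher at each dose, and 20 uM was 4.49-fold above control (4.35 to 4.65). With enzalutamide on both sides 20 uM was 1.14-fold higher (1.10 to 1.19). The highest of the 3 libraries with enzalutamide was the one at 10 uM. An antisense gene overlaps 8.97% of its exon length and stayed at or below 0.453 FPKM.

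Of the 2 reductases, TXNRD1 stood apart in both 20 uM libraries, and GSR did not. TXNRD1 encodes cytosolic thioredoxin reductase, a selenoprotein that keeps thioredoxin reduced and offers a second route for reducing cystine. It (ENSG00000198431, chromosome 12, 104215779 to 104350305) stood at 42.8 FPKM in the control, 40.4 with enzalutamide, 36.8 with 10 uM PTUPB, 42.1 with the 10 uM combination, 168.3 with 20 uM PTUPB and 110.2 with the 20 uM combination. The 4 libraries below 20 uM lay within 36.8 to 42.8 FPKM, and 20 uM was 3.94-fold higher without (3.84 to 4.03) and 2.73-fold higher with enzalutamide (2.65 to 2.81). GSR encodes glutathione reductase, which returns oxidised glutathione to the reduced form. It (ENSG00000104687, chromosome 8, 30678061 to 30727999) stood at 67.7, 52.9, 46.0, 38.7, 73.5 and 45.9 FPKM in the same order. GSR was lower with enzalutamide than without it at each PTUPB dose, and its lowest level was that of the 10 uM combination.

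GPX4 was the most abundant of the 9 genes per length in the control and varied little. It (ENSG00000167468, chromosome 19, 1103926 to 1106791) stood at 121 FPKM in the control, 149 with enzalutamide, 114 with 10 uM PTUPB, 124 with the 10 uM combination, 126 with 20 uM PTUPB and 200.4 with the 20 uM combination. Only the last library stood apart, at 1.34-fold the enzalutamide library (1.30 to 1.39). AIFM2 (ENSG00000042286, chromosome 10, 70098223 to 70132934) was low: 0.410, 0.145, 0.270, 0.280, 0.396 and 0.382 FPKM in the same order, from 21 to 63 fragments. Its value of 0.145 with enzalutamide rests on 21 fragments, and it was 2.83-fold below control there (counting interval 1.71 to 4.89). Mean FPKM of AIFM2 was 0.314, under the minimum of 1 used for testing.

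CHAC1, which cleaves glutathione and is a known ATF4 target, was above the control in all 5 treated libraries. It (ENSG00000128965, chromosome 15, 40952962 to 40956519) stood at 4.10 FPKM in the control, 7.98 with enzalutamide, 7.13 with 10 uM PTUPB, 16.0 with the 10 uM combination, 13.7 with 20 uM PTUPB and 11.9 with the 20 uM combination. The highest level was that of the 10 uM combination, 2.25-fold above 10 uM PTUPB alone (2.00 to 2.53). At 20 uM CHAC1 was 3.34-fold above control without enzalutamide (2.88 to 3.88) and 1.49-fold above enzalutamide with it (1.31 to 1.70). For comparison within the same libraries, the stress factor gene DDIT3 stood at 16.0 FPKM in the control and 359 and 440 FPKM at 20 uM without and with enzalutamide.

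**Figure D2:**
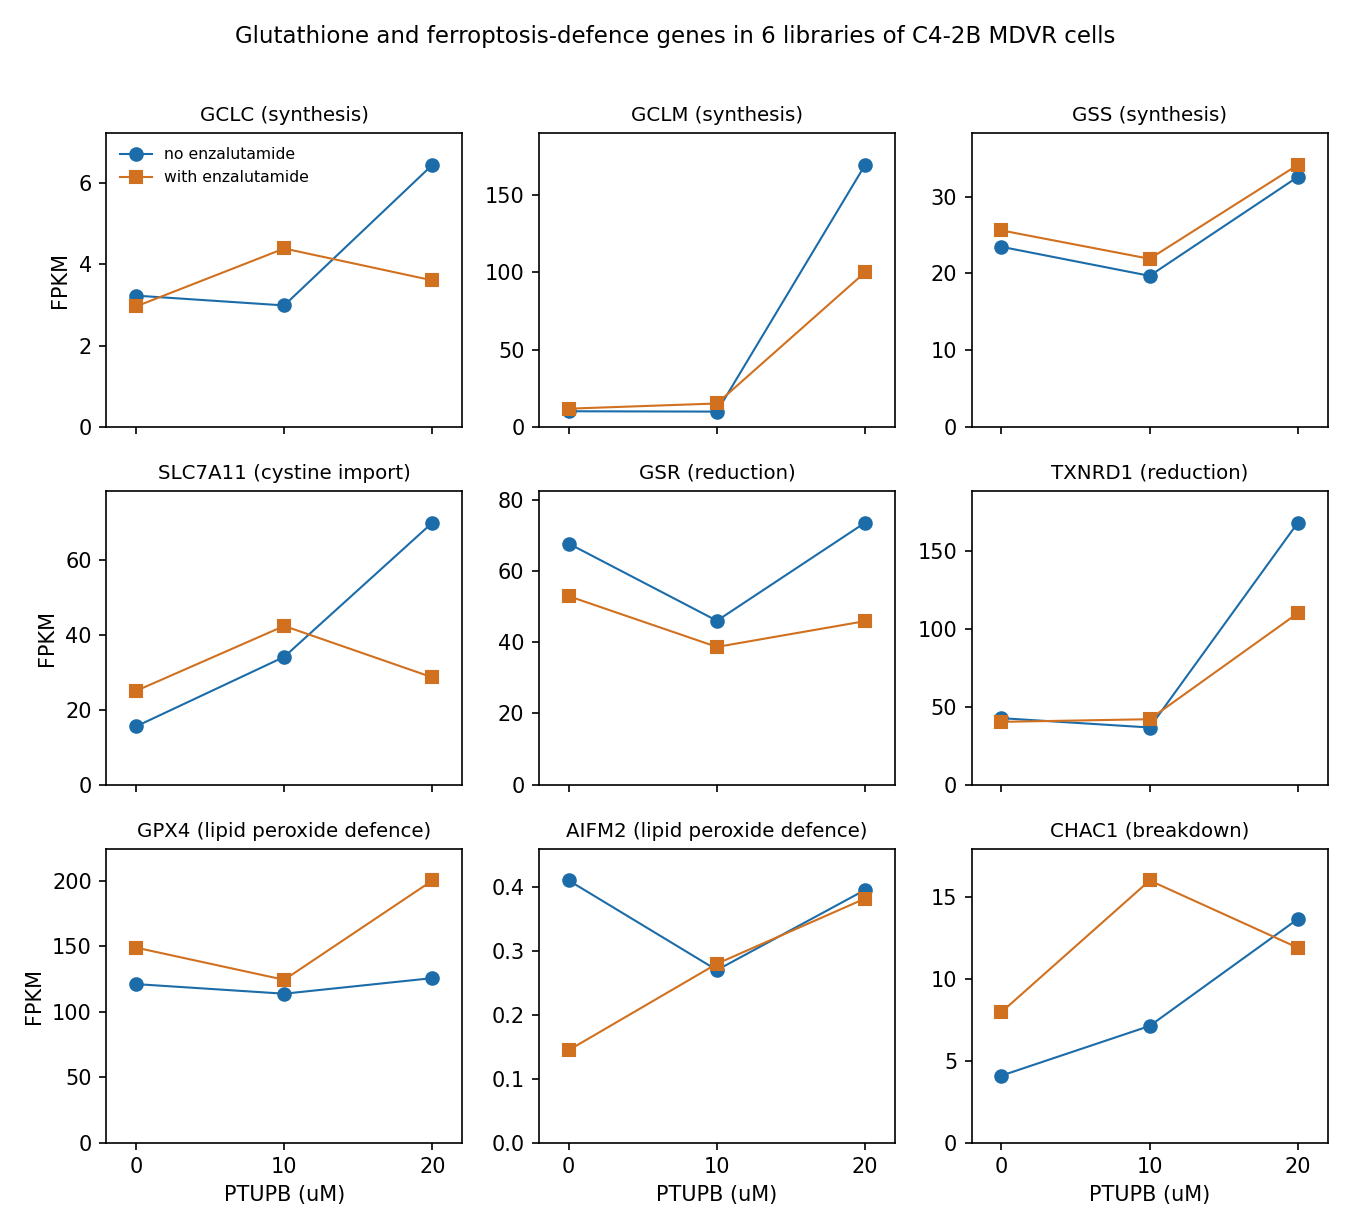
Each panel plots 1 gene, with PTUPB dose in uM on the horizontal axis and FPKM from 0 on the vertical axis; blue circles are libraries without and orange squares libraries with enzalutamide, 1 library per point. GCLM and TXNRD1 are far higher at 20 uM than at 0 or 10 uM in both lines. With enzalutamide, GCLM goes from 11.8 FPKM at 0 uM to 15.2 FPKM at 10 uM. For SLC7A11 the 2 lines part at 20 uM (69.97 and 28.7 FPKM).

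The PTUPB effect was tested in an additive model over all 6 libraries (limma, log2 of FPKM + 1), in which the matched libraries with and without enzalutamide stand in for replicates, so the tests of each agent take departures from additivity as the error. Of the 9 genes 8 passed the level filter. At 20 uM, 2 of these rose and 0 fell: GCLM by 3.46 on the log2 scale (SE 0.33, adjusted p 0.0034) and TXNRD1 by 1.69 (SE 0.25, adjusted p 0.0077). Across all 12960 genes tested 34.2% were called in either direction and 15.9% as rising, so a share of 25.0% called is no result about the 8 genes as a group. The median effect over the 8 was 0.77 against 0.0045 for all genes tested. With 1 library left out that median ran from 0.43 (without 20 uM PTUPB alone) to 1.27 (without the 20 uM combination). The genes were chosen with earlier results of these data known, so the median is given as a description. By single pairs, 4 of the 9 genes stood at log2 1 or more at 20 uM without enzalutamide (GCLM, TXNRD1, SLC7A11 and CHAC1), all higher, where 31.1% of all genes did in either direction. With enzalutamide 3 did (GCLM, TXNRD1 and AIFM2, the last from 21 and 36 fragments), where 39.6% did. These and later shares by pair cover the 12960 genes tested, which leave out AIFM2. The enzalutamide, 10 uM and 20 uM comparisons without the other agent share the DMSO library.

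The other 6 did not pass at 20 uM. CHAC1 had an effect of 1.03 (SE 0.32, adjusted p 0.055), SLC7A11 1.14 (SE 0.46, adjusted p 0.11), GCLC 0.52 (SE 0.29, adjusted p 0.21), GSS 0.43 (SE 0.17, adjusted p 0.10), GPX4 0.24 (SE 0.23, adjusted p 0.45) and GSR -0.04 (SE 0.20, adjusted p 0.89). CHAC1 and SLC7A11 passed after rescaling to TPM (adjusted p 0.019 and 0.026) and in limma-voom on recovered fragments (0.036 and 0.044). CHAC1 also passed without the 10 uM PTUPB library (0.0499) or the 10 uM combination (0.048). The size for CHAC1, SLC7A11, GCLC and GPX4 differed with which 20 uM library was left out. Without the 20 uM combination CHAC1, SLC7A11 and GCLC passed (0.010, 0.0095 and 0.044) with effects of 1.59, 2.01 and 0.95, and GPX4 had 0.011. Without 20 uM PTUPB alone the effects of CHAC1, SLC7A11 and GCLC were 0.46, 0.27 and 0.084, none of which passed (adjusted p 0.093, 0.31 and 0.79), and GPX4 had 0.47. The baseline libraries mattered too: SLC7A11 had 0.58 without the control and 1.71 without the enzalutamide library, and CHAC1 had 0.84 and 1.21. TXNRD1 did not pass without the control (adjusted p 0.067) or without the enzalutamide library (0.080), in fits with 1 residual degree of freedom, while its effect stayed at 1.62 and 1.75. GCLM passed in each of the 12 alternatives.

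Set directly against 10 uM, 20 uM PTUPB gave higher GCLM (3.30, SE 0.33, adjusted p 0.0043), TXNRD1 (1.77, SE 0.25, adjusted p 0.0083) and GSS (0.66, SE 0.17, adjusted p 0.033) in limma. That is 3 of 8 genes, 37.5%, where 33.4% of all genes tested were called, 16.5% as rising. GSS did not pass without the control (0.10), enzalutamide (0.10), 10 uM PTUPB (0.23) or 10 uM combination library (0.21), nor with no filter on low values (0.063). TXNRD1 did not pass without 10 uM PTUPB (0.057) or with no filter (0.052). SLC7A11 had an effect of 0.23 (SE 0.46, adjusted p 0.72) and CHAC1 0.23 (SE 0.32, adjusted p 0.60), each with pairs of opposite sign: 1.04 and -0.56 for SLC7A11 and 0.94 and -0.43 for CHAC1, without and with enzalutamide. Without the 20 uM combination library both passed (1.10, adjusted p 0.025, and 0.79, adjusted p 0.035), and without 20 uM PTUPB alone they had -0.64 and -0.34. Past log2 1 in single pairs were 4 of the 9 genes without enzalutamide (GCLM, TXNRD1, GCLC and SLC7A11), where 32.0% of all genes were, and 2 with it (GCLM and TXNRD1), where 38.6% were.

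At 10 uM PTUPB none of the 8 genes passed in limma (0 of 12960 genes, 0.0%; 480 genes and 1 of the 8 at unadjusted p under 0.05, and limma-voom also called 0, with 560 at unadjusted p under 0.05). The gene at unadjusted p was CHAC1 (0.80, SE 0.32, unadjusted p 0.049, adjusted p 0.98), which was 1.74-fold higher at 10 uM without enzalutamide and 2.01-fold higher with it. SLC7A11 had a fitted value of 0.91 (SE 0.46, adjusted p 0.98), from 2.19-fold and 1.69-fold. With 1 library left out the SLC7A11 value ran from 0.35 (without the control) to 1.48 (without enzalutamide) and that of CHAC1 from 0.42 to 1.17. Counted by pair, SLC7A11 alone stood at log2 1 or more without enzalutamide, where 5.15% of genes did, and CHAC1 alone with it, where 7.99% did. The SLC7A11 value without enzalutamide fell below that margin after rescaling to TPM (log2 0.82).

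Enzalutamide called none of the 8 genes in limma (0 of 12960, 0.0%; 626 genes and 1 of the 8, GSR, at unadjusted p under 0.05, and limma-voom called 1 gene, not among the 8, with 679 at unadjusted p under 0.05). Single pairs nonetheless differed in size and sign between PTUPB doses. For SLC7A11 the log2 ratio of the library with enzalutamide over its match was 0.69 at 0, 0.31 at 10 and -1.29 at 20 uM PTUPB. For GCLM it was 0.22, 0.61 and -0.76, for GCLC -0.12, 0.55 and -0.84, and for TXNRD1 -0.08, 0.20 and -0.61. After rescaling to TPM the ratios at 0 uM were 0.26 for SLC7A11, -0.21 for GCLM, -0.55 for GCLC and -0.51 for TXNRD1. These 4 genes were all lower with enzalutamide at 20 uM, a pair in which 15.1% of all genes differed by log2 1 or more in either direction. SLC7A11 was the 1 of the 9 genes that passed that margin there, and after rescaling to TPM GCLC and GCLM did too.

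CHAC1 was higher with enzalutamide at 0 and 10 uM PTUPB (log2 0.96 and 1.17) and stood at -0.20 at 20 uM. At 10 uM it was the 1 of the 9 genes past log2 1, where 6.77% of all genes tested were. Without PTUPB that 1 gene was AIFM2 at -1.50, where 5.88% of all genes tested were. AIFM2, at 21 and 63 fragments in that pair, lay below the level filter and is not among the genes tested. With the deposited values GSR was lower in all 3 pairs (-0.35, -0.25 and -0.68) and GPX4 higher in all 3 (0.30, 0.13 and 0.67). Their fitted enzalutamide values were -0.42 for GSR (SE 0.17, adjusted p 0.92) and 0.36 for GPX4 (SE 0.19, adjusted p 0.92). After rescaling to TPM the GPX4 pair at 0 uM turned to -0.13. GSR stayed lower in all 3 pairs under TPM and under scaling by total fragments. The median ratio of all genes tested at 0 uM was 0.00 as deposited and -0.43 after TPM.

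A term for enzalutamide by linear PTUPB dose tested whether the enzalutamide difference changes along a straight line with dose. It called 0 of 12960 genes in limma (0.0%; 1219 at unadjusted p under 0.05), with 1 residual degree of freedom. SLC7A11 had the largest value of the 8 genes, -0.96 per 10 uM (SE 0.23, unadjusted p 0.0073, adjusted p 0.45), followed by CHAC1 at -0.50 (SE 0.24, adjusted p 0.56) and GCLM at -0.48 (SE 0.27, adjusted p 0.59). A dependence of the enzalutamide difference on PTUPB dose is therefore not shown for these genes.

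**Figure D3:**
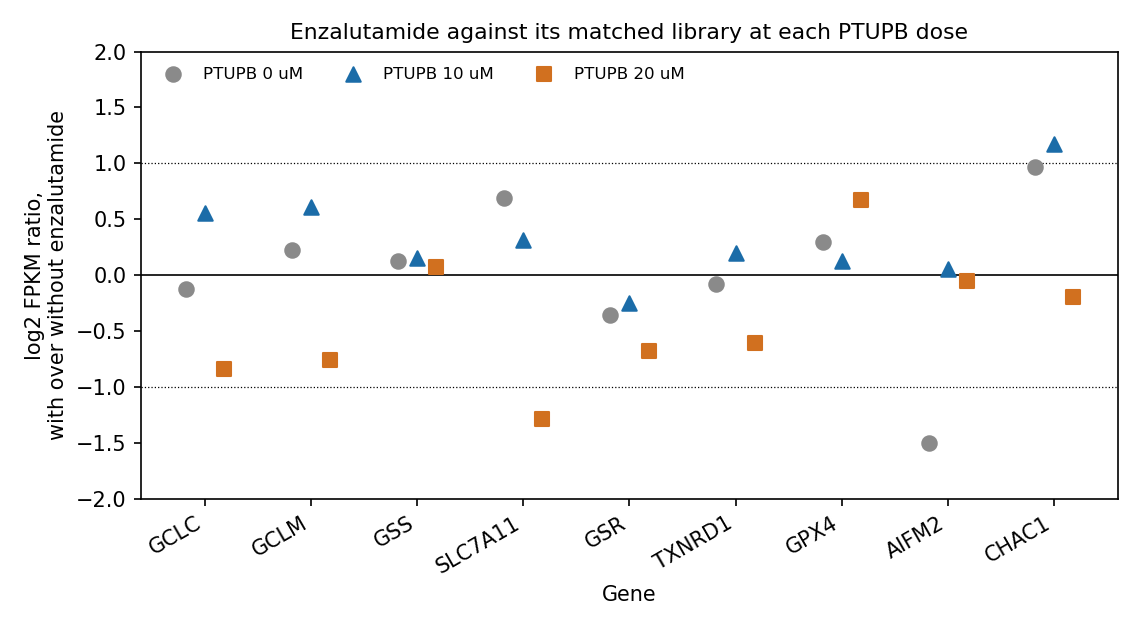
Points give the log2 ratio of FPKM with over without enzalutamide for each gene at 0 (grey circles), 10 (blue triangles) and 20 uM PTUPB (orange squares), 1 pair of libraries per point; dotted lines mark log2 1 in either direction. SLC7A11 runs from 0.69 at 0 uM to -1.29 at 20 uM, GSR is below 0 at every dose, and the AIFM2 point at 0 uM rests on 21 and 63 fragments.

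Related genes were read from 10 lists written from general knowledge, by the 20 uM PTUPB effect and limma. Over all genes tested 34.2% were called, 15.9% as rising and 18.2% as falling, and each list's counts stand beside those shares. Calls were fewer in fits without the control or without the enzalutamide library, which have 1 residual degree of freedom. Among the genes named below, GGT1, MAT2A, SRXN1, SAT1, DIO1, SQSTM1, HMOX1, ATF3, DDIT3 and PPP1R15A passed in both of these fits, and each of the others missed the threshold in at least 1. Of 15 other genes of glutathione turnover tested, 1 rose, 3 fell and 11 did not pass (median -0.38). Without the control or without the enzalutamide library 0 rose and 1 fell in each fit. GGT1, the gamma-glutamyl transferase that starts breakdown of extracellular glutathione, fell by 2.55 (SE 0.18, adjusted p 0.0023), from 34.8 FPKM in the control to 4.76 and 4.08 FPKM at 20 uM without and with enzalutamide. Its relative GGT6 fell by 1.10 (adjusted p 0.027), and the glutaredoxin GLRX3 rose by 0.86 (adjusted p 0.018). GGT6 was low, at 1.37 FPKM in the control and 0.080 and 0.190 FPKM at 20 uM without and with enzalutamide. The lowest GGT6 count was 6 fragments, and its effect was -1.99 after rescaling to TPM and -3.43 in limma-voom. Reads of GGT1 and GLRX3 may be shared with near-identical copies.

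In cysteine supply 2 of 17 genes rose and 3 fell (median -0.40), a share called near that of all genes. Without the control 1 rose and 1 fell, and without the enzalutamide library 0 rose and 1 fell. SLC3A2, the heavy chain that carries SLC7A11 to the membrane and also partners amino acid carriers, rose by 2.63 (SE 0.30, adjusted p 0.0047). It stood at 39.3 FPKM in the control and 63.8 with enzalutamide, and at 195.7 and 506.5 FPKM with 20 uM PTUPB without and with it. The 2 subunits of xCT therefore differed in order at 20 uM: SLC3A2 was higher and SLC7A11 lower in the combination than with PTUPB alone. CTH, which makes cysteine from cystathionine, rose by 1.40 (adjusted p 0.016), and MAT2A, which makes S-adenosylmethionine upstream of that route, fell by 2.28 (adjusted p 0.0033).

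Among NADPH suppliers, which feed both reductases, 4 of 15 rose and 2 fell (median 0.25). Under scaling by total fragments and under limma-voom 5 fell, while 1 rose without the control and 0 without the enzalutamide library, with 0 falling in both. The malic enzyme genes ME1 (1.87, adjusted p 0.012) and ME2 (1.76, adjusted p 0.0036) rose. ME1 stood at 14.3 FPKM in the control and at 79.2 and 51.4 FPKM at 20 uM without and with enzalutamide. Thioredoxin and peroxiredoxin genes went both ways: 3 of 20 rose and 8 fell (median -0.20). Without the control 2 rose and 1 fell, and without the enzalutamide library 1 rose and 0 fell. SRXN1, which repairs over-oxidised peroxiredoxins, rose by 2.12 (adjusted p 0.0029) and PRDX5 by 1.74 (adjusted p 0.0049), whereas PRDX1 fell by 1.94 (adjusted p 0.0065), from 279.6 to 91.3 and 54.4 FPKM. PRDX1 has processed copies that may share its reads.

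The list on the lipid side of ferroptosis holds genes of fatty acid activation, desaturation and phospholipid remodelling, and some that do neither, such as SAT1 and PEBP1. Of 18 tested, 9 fell, 1 rose and 8 did not pass (median -0.56). Without the control 1 rose and 3 fell, and without the enzalutamide library 1 rose and 0 fell. ACSL1, which activates long-chain fatty acids, fell by 1.94 (adjusted p 0.0050), and MBOAT2, a lysophospholipid acyltransferase, by 1.81 (adjusted p 0.0094). The riser was SAT1, the polyamine acetyltransferase, at 2.24 (adjusted p 0.0031). The list mixes genes held to favour ferroptosis and genes held to oppose it, so its count has no single direction for ferroptosis. Of 24 other defence genes 8 fell and 1 rose (median -0.39), a share called near that of all genes. Without the control 3 fell, and without the enzalutamide library 0 fell, with 0 rising in both. Those that fell included LRP8, a receptor for selenoprotein P (-2.48, adjusted p 0.0052), PDSS1 of coenzyme Q synthesis (-1.59, adjusted p 0.0057) and PROM2, a prominin held to aid iron export (-1.50, adjusted p 0.017).

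GPX4 and TXNRD1 carry selenocysteine, and of the genes listed for building it 2 of 10 rose, 1 fell and 7 did not pass (median 0.03), a share called near that of all genes. Under scaling by total fragments 1 rose. Without the control 1 rose and 0 fell, and without the enzalutamide library 0 rose and 0 fell. SEPHS2, which makes selenophosphate, the selenium donor, rose by 2.70 (SE 0.36, adjusted p 0.0063). It stood at 46.0 FPKM in the control, 54.0 with enzalutamide, 47.0 and 81.4 with 10 uM PTUPB without and with enzalutamide, and 415.9 and 262.4 at 20 uM. Like GCLM and TXNRD1, SEPHS2 was higher at 20 uM without than with enzalutamide. SEPSECS rose by 0.69 (adjusted p 0.032, and 0.055 by total fragments), while SELENBP1, a selenium-binding protein and no part of the synthesis route, had -1.20 (adjusted p 0.11). Of 12 other selenoprotein genes 3 rose and 5 fell (median -0.53). Without the control 2 fell and without the enzalutamide library 1 fell, with 0 rising in both. DIO1, a thyroid hormone deiodinase, fell by 3.74 (adjusted p 0.0047), SELENON, a calcium-handling protein of the endoplasmic reticulum, fell by 1.62 (adjusted p 0.0074), and SELENOS, of endoplasmic reticulum degradation, rose by 1.78 (adjusted p 0.012).

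In the list of the NRF2 system, its regulators and further targets, 10 of 16 genes rose and 3 fell (median 1.08), beside 15.9% of all genes rising and 18.2% falling. SQSTM1, an autophagy receptor that binds KEAP1, rose by 3.05 (adjusted p 0.0029) and the heme oxygenase HMOX1 by 2.80 (adjusted p 0.0029), while the transporter ABCC4 fell by 2.71 (adjusted p 0.0047). In the list of ATF4, its kinases and its targets, 9 of 13 rose and 0 fell (median 1.68), beside the same shares, led by ATF3 (5.48, adjusted p 0.0019), DDIT3 (4.29, adjusted p 0.0019) and PPP1R15A (3.18, adjusted p 0.0023). Earlier results of these data showed the rise of both groups, so the direction is no independent evidence. Without the control or the enzalutamide library the NRF2 risers were 5 and 4 and the ATF4 risers 6 and 5.

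**Figure D4:**
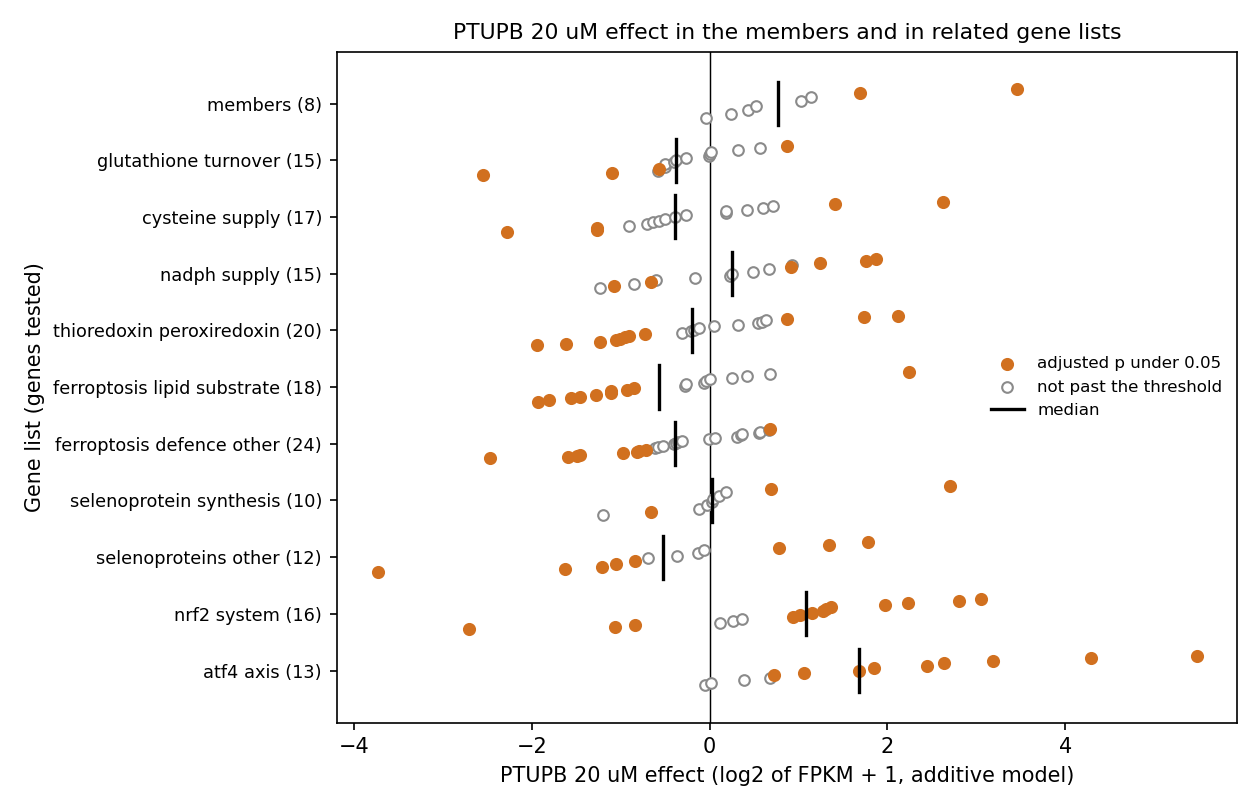
Each point is 1 tested gene at its 20 uM PTUPB effect (log2 of FPKM + 1, additive model), by list, with the number tested in brackets; orange points passed an adjusted p of 0.05 in limma, open points did not, and black bars are medians. The medians of the NRF2 and ATF4 lists lie at 1.08 and 1.68 and those of the other 8 lists between -0.56 and 0.25.

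Likeness of pattern was measured as the root mean square difference of centred log2 (FPKM + 1) over the 6 libraries, for the 4 genes whose log2 values ranged over 1 or more. Nearest to GCLM were the antisense gene ENSG00000284644 (0.14), the long noncoding gene ENSG00000259200 (0.17) and the zinc finger gene ZNF554 (0.17). Nearest to TXNRD1 were the circadian repressor gene BHLHE41 (0.09), the pseudogene TCEA1P2 (0.09) and ZNF770 (0.10). Because 1 is added to FPKM, a low gene can be near on this scale with a larger fold. BHLHE41 stood at 0.161 FPKM in the control and 4.05 with 20 uM PTUPB, and ENSG00000259200 at 0.0527 and 12.1. Nearest to SLC7A11 were MANBA, a lysosomal mannosidase gene (0.20), LINC02924 (0.22) and APOL6 (0.22), and nearest to CHAC1 were ID2 (0.15), a Y RNA gene (0.22) and the pseudogene ENSG00000246575 (0.22). ID2 ran from 2.26 FPKM in the control to 7.69 in the 10 uM combination, 7.37 with 20 uM PTUPB and 6.55 in the 20 uM combination, the same order as CHAC1 at its top. These likenesses, over 6 libraries and among 12960 genes, are given as a description.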

How the data were processed

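Messenger RNA libraries, 6 in all and 1 per group, were made from total RNA and sequenced as paired reads, per the labels' protocols. The submitters' processing notes name HISAT and Cufflinks; versions and the genome build are not given in the sources used here. The authors deposited 1 table of FPKM values for 58735 genes. All identifiers matched GENCODE release 29, and FPKM times exon length fell on whole multiples of 1 step per library (within 0.05 fragments), which gave fragments per gene and 20156523 to 29450436 fragments per library. Whether counting used strand is not stated, so reads of overlapping antisense genes cannot be told apart.

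The test was limma 3.58.1 (R 4.3.3) with an intensity trend on log2(FPKM + 1), restricted to 12960 genes averaging at least 1 FPKM, with PTUPB as 3 levels plus enzalutamide, 2 residual degrees of freedom, two-sided, Benjamini-Hochberg adjusted, threshold 0.05. A fold on that scale understates changes of low genes. Single-pair folds use FPKM without a pseudocount, with exact binomial 95% intervals on fragments. Nothing in the labels says the libraries came from separate cultures, so p-values rest only on the spread between these samples, with departures from additivity as the error. The code was tested on simulated data. Alternatives were a pseudocount of 0.1, no filter, TPM, no trend, and each library left out; limma-voom, scaling by total fragments and an enzalutamide by dose term were chosen after seeing the data. Genes named beyond the 9 are the 3 with the largest absolute 20 uM effect of each list and the 3 nearest in pattern. Some items that this rule or the marker lists would name are not reported here. The 9 genes and the lists were chosen with earlier results of these data known.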

Additional observations from a re-analysis of the deposited data

Results flagged for a closer look

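Some genes had single pairs of libraries that differed in opposite directions by more than log2 0.5 each. Each side is 1 library against 1 library, so no spread between replicates stands behind these values. For SLC7A11, enzalutamide against its match was 0.69 without PTUPB and -1.29 at 20 uM PTUPB, a distance of 1.9735 on the log2 scale. These values were 0.26 and -1.61 after rescaling to TPM and 0.497 and -1.50 by total fragments. The side without PTUPB was thus under log2 0.5 in both rescalings, with its sign kept. The same gene at 20 against 10 uM PTUPB was 1.04 without and -0.56 with enzalutamide, a distance of 1.5994. The interaction of enzalutamide with PTUPB dose for SLC7A11 was -0.96 per 10 uM (limma, SE 0.23, adjusted p 0.45), which did not pass. For GCLC, enzalutamide against its match was 0.55 at 10 uM and -0.84 at 20 uM PTUPB, a distance of 1.3927, with an interaction of -0.30 (limma, adjusted p 0.72). For GCLM the values were 0.61 and -0.76, a distance of 1.3732, with an interaction of -0.48 (limma, adjusted p 0.59). The interaction term is linear in dose. For GCLC and GCLM the enzalutamide ratio was highest at 10 uM, a bend that this term takes as error. For AIFM2, 10 uM PTUPB was 0.95 with and -0.60 without enzalutamide, a distance of 1.5553, from 21 to 63 fragments. This AIFM2 difference was not tested.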

How the results depend on the processing

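Of 252 values for single genes under alternatives, 222 kept their direction and side of the threshold, 9 lost and 11 gained a call, and 10 turned in sign; of 114 counts, 91 stayed within 1.5 times. With 20 uM PTUPB 4426 genes were called, 1201 with no filter on low values and 324 (without the enzalutamide library) to 5403 with 1 library left out; members called were 2, and 4 after TPM, 4 with limma-voom and 1 to 5 with 1 library left out. For 20 against 10 uM, 4325 genes were called, 868 with no filter and 838 (without 10 uM PTUPB) to 5591 with 1 left out; members called were 3, 1 with no filter and 1 to 5 with 1 left out. For enzalutamide TPM called 9 genes and limma-voom 1, against 0. Members past log2 1 with enzalutamide at 20 uM PTUPB were 3 after TPM and 2 by total fragments, against 1. At 10 uM PTUPB they were 0 after TPM without enzalutamide, and 2 after TPM and 2 by total fragments with it, against 1 each. With 1 library left out, signs turned for GSR at 20 uM (-0.23 to 0.14) and, for 20 against 10 uM, for GCLC (-0.095 to 0.77), SLC7A11 (-0.64 to 1.10) and CHAC1 (-0.34 to 0.79). The GSS enzalutamide value of 0.11 turned to -0.15 after TPM and -0.016 by total fragments. The cause was not tested. No paired analysis was possible because a block by replicate number has a single level, 1, in all 6 libraries; the additive model itself matches libraries by the other agent. AIFM2, at 21 to 63 fragments, is limited by depth.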
